A study of Mus musculus with 3 samples.

Results

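The potassium channel genes of the mouse were followed through the layers of the main olfactory bulb. A gene was a member if its symbol had the form Kcn, one or more letters and a number, which takes pore-forming and auxiliary subunits and leaves out the Hcn genes. The files held 81 such genes of 19621 genes in all, in 20 subfamilies by the letters after Kcn, and the pattern left out Kcne1l and the antisense transcript Kcnq1ot1. The study placed 3 coronal sections of main olfactory bulb from C57BL/6J mice, aged 12 weeks, on high-density spatial arrays, in which barcoded spots capture poly(A) RNA where it lies in the tissue. All sections had the same strain, age and tissue and the labels name no treatment, so the comparisons are between regions of a section. Nothing in the labels ties a section to an animal. The p-values measure only how differences between regions vary from section to section, and this spread may be technical. A spot is a small region of tissue that can hold parts of several cells or of one.

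Potassium channels let potassium ions pass along their gradient and so set the resting potential of a cell and end its electrical signals. The pore is built from pore-forming (alpha) subunits, among them the voltage-gated subfamilies Kcna, Kcnb, Kcnc, Kcnd, Kcnh and Kcnq, the inward rectifiers Kcnj, the leak channels Kcnk and the calcium- or sodium-activated channels Kcnma, Kcnn and Kcnt, while the Kcnab, Kcnip, Kcnmb and Kcne subunits join a pore and alter its gating or its transport to the membrane. In the olfactory bulb, sensory axons reach mitral and tufted cells in the glomeruli, the dendrites of these cells meet those of granule cells in the external plexiform layer, and the cell bodies of granule cells lie deeper.

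The deposited annotation gave each spot 1 of 9 regions, here listed from outside to inside: olfactory nerve layer (ONL), glomerular layer (GL), external plexiform layer (EPL), mitral layer (M/T), internal plexiform layer (IPL), external granule cell layer (GCL-E), internal granule cell layer (GCL-I), ependymal cell zone (E) and rostral migratory system (RMS). Neighbours were also pooled into 5 zones: outer (ONL and GL), EPL, mitral and IPL (M/T and IPL), granule (GCL-E and GCL-I) and core (E and RMS). The way the regions were drawn is not stated in the sources used here, nor is it stated if gene expression guided the drawing. The thin layers touch others almost everywhere: between 94.8% and 98.8% of M/T spots, against 18.7% to 22.7% of EPL spots, lay within 5 array positions of another region.

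The sections held 344260, 650393 and 505305 counts, and the sums per section and region ran between 1456 counts (RMS of section 3) and 182699 counts (EPL of section 2). Levels are given as CPM, the counts of a gene per 1000000 counts of the sum, and intervals on counts cover counting error only. In sums of spots, fewer cells of a type and less RNA per cell cannot be told apart. Regions were compared with edgeR's quasi-likelihood test on the counts, with section as a block, each region against the mean of the other 8 and each zone against the mean of the other 4. Adjusted p-values are from this test after Benjamini-Hochberg adjustment over all genes tested, and a gene with an adjusted p under 0.05 is called higher or lower. The SE printed with a log2 fold change is the size of that change divided by the square root of the test's F value. It is thus derived from the test and is not a separate estimate. None of the calls below was made without the section block, except that 1 member still differed across the 5 zones.

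Marker lists were set against the labelled layers, and some followed them. The granule cell list (10 genes, such as Gad1 and Synpr) summed to between 9372 and 9864 CPM in the granule zone, against 4118 to 5475 CPM in the EPL. The mitral and tufted cell list had 7 of its 8 genes in the files, and all of its 5 tested genes were called higher in M/T by edgeR. The same 5 were also called higher in EPL and 4 of them in GL, and the list's mean zone sum was 3061 CPM in the EPL and 2397 CPM in the mitral and IPL zone. The neuroblast list averaged 962 ± 357 CPM in RMS, the sixth highest of the 9 regions, and 0 of its 4 tested genes were called there by edgeR. Slc17a6, a vesicular transporter gene of the mitral and tufted list, was sparse. It had 21 counts in the outer zone, 7 in the EPL, 2 in the mitral and IPL zone and 0 in the granule zone.

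Member transcripts were a small share of the library. They made up 1645, 3057 and 2288 counts in the regions of sections 1, 2 and 3, or 0.478%, 0.474% and 0.456% of all counts. Sections 1, 2 and 3 held 64, 73 and 69 of the 81 members, and 55 members were found in all 3. Counts were concentrated: 24 members with at least 100 counts held 83.2% of the member counts and 39 with at least 30 counts held 95.5%, while 27 members had under 10 counts and 11 of these a single count. Most spots with a member held 1 count of one: over all spots, 1567, 2923 and 2200 spots carried member counts and only 73, 151 and 99 of them carried more than a single count.

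Among subfamilies the Kcnj inward rectifiers had the most counts, with 1458 counts over 13 members, of which Kcnj10 held 632. The Kcnd subfamily followed with 754 counts over 3 members (Kcnd2 held 499). Kcnb2 had 336 counts, Kcnh had 598 over 8 (Kcnh3 held 213), Kcna had 583 over 7 (Kcna2 held 371) and Kcnc had 526 over 4 (Kcnc1 held 343). The auxiliary Kcnip and Kcnab subfamilies had 465 and 464 counts, led by Kcnip2 (172) and Kcnab2 (260). Kcnq had 360 counts, the leak channels Kcnk had 324 over 11 members (Kcnk1 held 122), and the silent subunit Kcnf1 had 262. Calcium- and sodium-activated channels were sparse, with 154 counts of Kcnma1, 122 of Kcnt (Kcnt1 held 110) and 114 of Kcnn (Kcnn2 held 69), and the Kcnmb auxiliaries had 83 counts (Kcnmb4 held 69). Kcns, Kcnv, Kcng, Kcnu and Kcne each had 23 counts or fewer. These counts describe depth, since transcripts of unlike length are not compared.

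Summed over all 81 members, the mean CPM was highest in GCL-I, E and M/T. The mean was 5489 ± 270 CPM in GCL-I, 5282 ± 354 CPM in E and 5222 ± 60.1 CPM in M/T (SD, n = 3 sections). It was 4984 ± 649 CPM in GCL-E, 4724 ± 222 CPM in EPL, 4643 ± 484 CPM in IPL and 4305 ± 414 CPM in GL. The lowest values were 3470 ± 568 CPM in ONL and 2822 ± 1331 CPM in RMS, the region with the fewest counts. Each pair of neighbours in this order overlapped in its section values, while the 3 ONL values (2898 to 4033 CPM) were all below the 3 EPL values (4485 to 4925 CPM). No test was made on these sums. CPM leaves out TMM scaling, the library scaling of the tests. Its factors in sections 1, 2 and 3 were 0.956, 0.813 and 0.818 in EPL, against 0.992, 0.970 and 0.965 in GCL-I. Dividing by them raises EPL relative to GCL-I in each section, so the order given here holds for unscaled CPM.

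**Figure D1:**
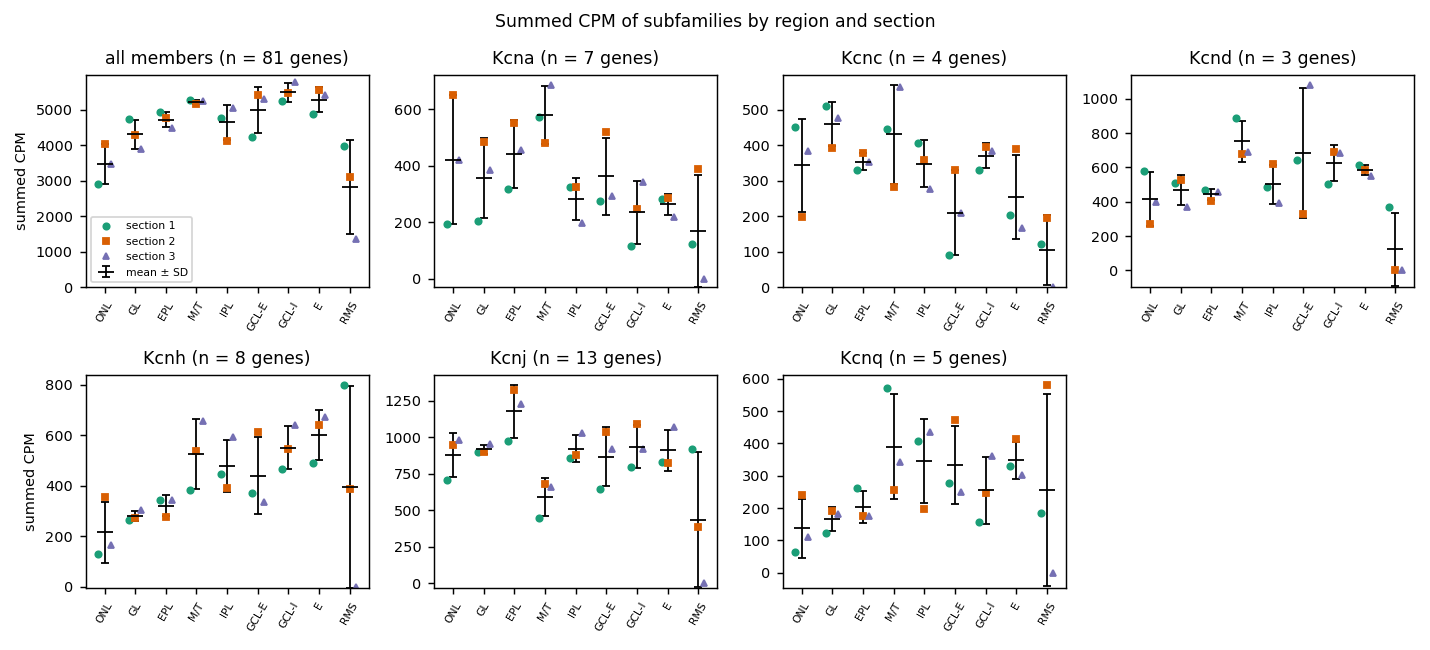
Summed CPM (vertical axis) in the 9 regions from outside to inside (horizontal axis) for all 81 members and for 6 subfamilies; symbols are the 3 sections, and bars are the mean and SD. Among the regions other than RMS the Kcnh sum was lowest in ONL (216 ± 121 CPM), Kcnj was highest in EPL (1177 ± 180 CPM) and Kcna was highest in M/T (580 ± 103 CPM).

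Subfamilies differed in where their sums peaked. The Kcnj sum was 977, 1325 and 1229 CPM in the EPL of sections 1, 2 and 3 (mean 1177 ± 180), the highest region mean, and 593 ± 130 CPM in M/T. The Kcna sum was highest in M/T at 580 ± 103 CPM and reached 235 ± 113 CPM in GCL-I. The Kcnh sum was 600 ± 97.8 CPM in E and 216 ± 121 CPM in ONL, and the Kcnd sum was 752 ± 118 CPM in M/T and 443 ± 33.1 CPM in EPL. Kcnq was also highest in M/T (390 ± 163 CPM) and lowest in ONL (138 ± 91.6 CPM). The Kcnc sum lay between 459 ± 61.5 CPM in GL and 210 ± 119 CPM in GCL-E among the regions other than RMS.

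Section 1 stood apart from the other sections for some members. Of the 39 members with at least 30 counts, 28 had a section 1 interval (exact 95% Poisson) that overlapped at least 1 of the other sections, 7 lay below both and 4 above both, while sections 2 and 3 overlapped for 39 of 39. Over all regions Kcnj10 was at 102 CPM (section 1), 537 CPM (section 2) and 500 CPM (section 3). Kcna2 was at 98.8, 318 and 263 CPM, Kcnma1 at 20.3, 140 and 114 CPM and Kcnj16 at 17.4, 82.2 and 95.6 CPM. The other members low in section 1 were Kcna1, Kcnh5 and Kcnh7. The opposite order was seen for Kcnj4, with 474, 130 and 145 CPM, and for Kcnip1, with 163, 43.4 and 55.8 CPM, as well as for Kcnip2 and Kcnab3. Marker lists moved with section in both directions. The summed astrocyte list (10 genes) in the EPL was 6741 CPM in section 1 and 15846 and 15268 CPM in sections 2 and 3. The mitral and tufted list in the EPL was 5021 CPM in section 1 and 1998 and 2163 CPM in sections 2 and 3, the periglomerular list in the outer zone 2540, 1073 and 1149 CPM, and the myelinating oligodendrocyte list in the core 6746, 3731 and 3712 CPM. The sections also differed in their mix of regions. E held 88079 of 344218 counts in section 1, 87316 of 644694 in section 2 and 59695 of 501870 in section 3. The part of these lists or of the mix of regions in the member levels was not tested. Section was a term of every test, so these offsets do not enter a difference between regions as long as they are the same in each region.

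**Figure D2:**
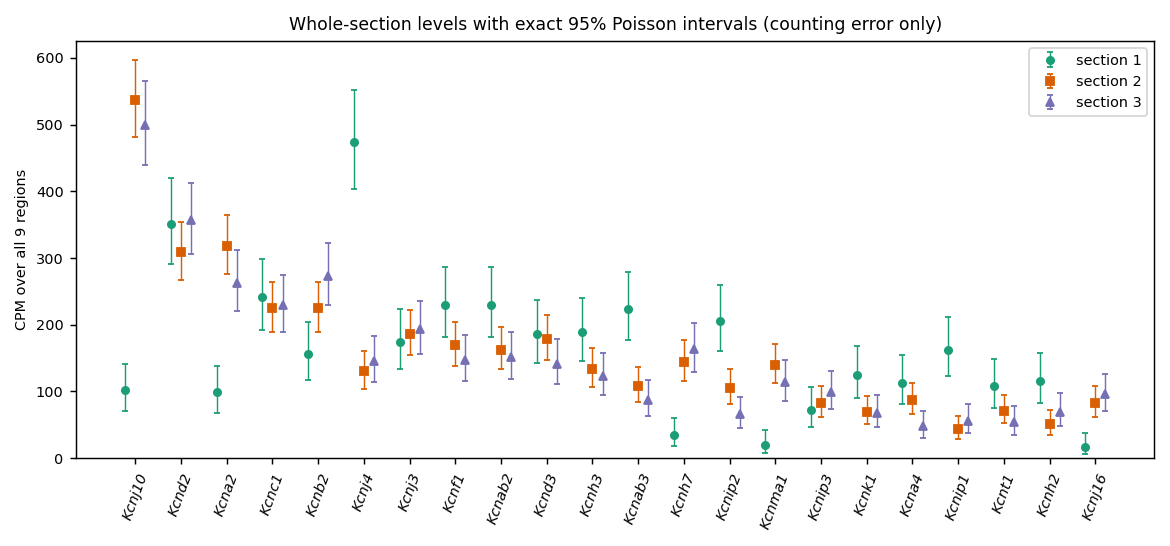
CPM over all 9 regions (vertical axis) for 22 members with at least 100 counts (horizontal axis, most counts first) in each section; bars are exact 95% Poisson intervals, which cover counting error only. Section 1 lies below the others for Kcnj10 and Kcna2 and above them for Kcnj4, and sections 2 and 3 overlap for each gene shown.

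Few members were deep enough to test. A filter on low counts left 17 members in the fit of 9 regions and 19 in the fit of 5 zones, 20 in either and 16 in both, so 61 of 81 members were tested in neither. Kcna4 entered with the regions alone, and Kcnk1, Kcnma1 and Kcnip1 with the zones alone. A member that passes only through a region where it is high has to differ between regions, so the counts below describe the tested members. Across the 9 regions 8 of 17 tested members differed, against 23.2% of the 1996 genes tested, and across the 5 zones 9 of 19 differed, against 23.0% of 2565 genes. Together these were 10 genes, among them the inward rectifiers Kcnj10 and Kcnj4, the voltage-gated subunits Kcna2, Kcnb2 and Kcnh3, the silent subunit Kcnf1 and the auxiliary subunits Kcnab2 and Kcnip1.

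**Figure D3:**
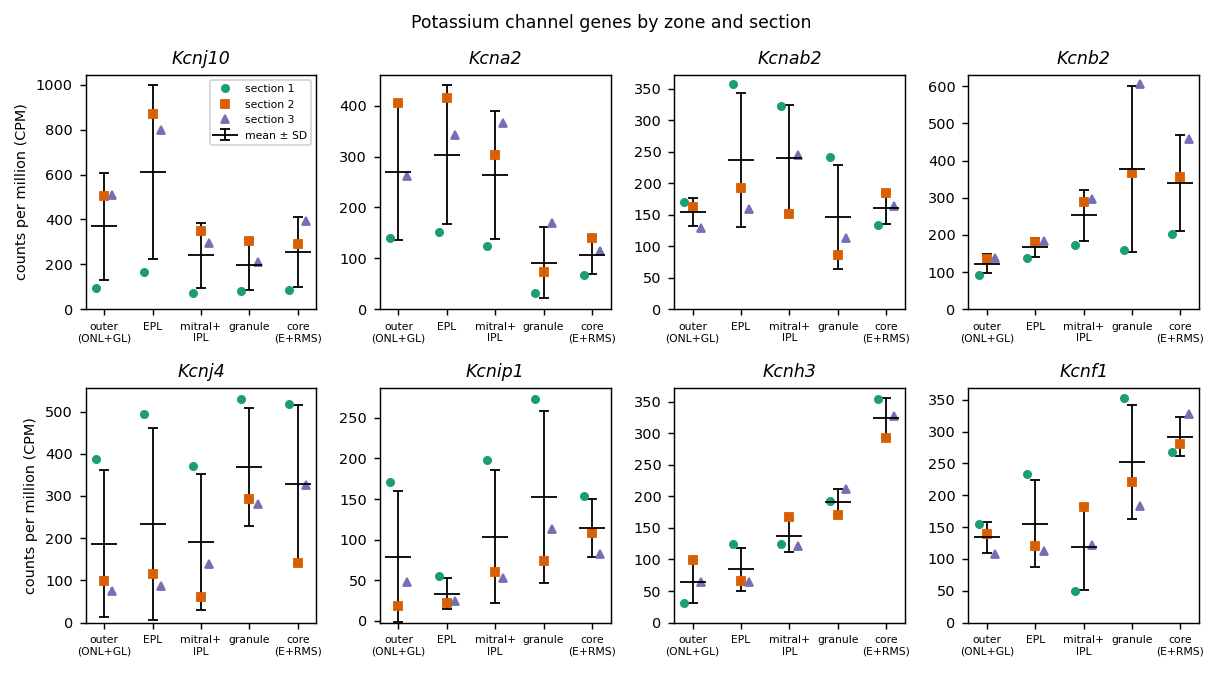
CPM (vertical axis) of 8 members that differed between regions or zones, in the 5 zones from outside to inside (horizontal axis); symbols are the 3 sections, and bars are the mean and SD. Kcnj10 and Kcna2 are highest in the EPL, Kcnb2 in the granule zone and Kcnh3 in the core (355, 292 and 327 CPM).

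The start of transcription is shown for 3 of the 10 genes, chosen because each has a single start in RefSeq and an upstream window free of annotated exons, and because Kcnj10 differed in the opposite direction from Kcnj4 in the granule zone while Kcnf1 was higher with Kcnj4 in GCL-I. RefSeq promoters (GRCm38.p6) were found for 6 of the 10, and 4 of these had a single start. Each line gives the 250 bases before the start, 5′ to 3′ on the strand of the gene: chr1:172340960-172341209 on the plus strand for Kcnj10, chr15:79505242-79505491 on the minus strand for Kcnj4 and chr12:17176889-17177138 on the minus strand for Kcnf1. Capitals mark 3 motifs searched on both strands. The GC box is GGGCGG. A second motif, the CCAAT box, is the letters in its name. The TATA box is read as TATAAA.
Kcnj10: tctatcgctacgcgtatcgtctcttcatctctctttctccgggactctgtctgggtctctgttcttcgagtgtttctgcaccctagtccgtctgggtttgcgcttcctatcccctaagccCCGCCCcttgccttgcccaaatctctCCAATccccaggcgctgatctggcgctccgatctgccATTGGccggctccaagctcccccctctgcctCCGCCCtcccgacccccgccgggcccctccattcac
Kcnj4: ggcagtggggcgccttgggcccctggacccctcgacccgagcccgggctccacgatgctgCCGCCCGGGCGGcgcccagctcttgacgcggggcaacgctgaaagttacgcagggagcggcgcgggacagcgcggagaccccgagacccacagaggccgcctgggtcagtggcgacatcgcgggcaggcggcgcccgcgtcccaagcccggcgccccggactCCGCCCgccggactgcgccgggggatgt
Kcnf1: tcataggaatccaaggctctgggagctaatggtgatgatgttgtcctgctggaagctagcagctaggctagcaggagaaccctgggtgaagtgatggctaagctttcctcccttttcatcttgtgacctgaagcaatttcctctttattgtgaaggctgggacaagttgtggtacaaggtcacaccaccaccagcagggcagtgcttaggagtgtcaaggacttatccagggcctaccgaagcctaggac
The window of Kcnj10 held 2 GC boxes and 2 CCAAT boxes and that of Kcnj4 held 3 GC boxes, a pair of which stand side by side in the first capital run. Neither was found before Kcnf1, and no window held a TATA box. The windows held 17, 35 and 1 CpG dinucleotides for Kcnj10, Kcnj4 and Kcnf1, against a median of 6 over 32851 RefSeq promoters of mouse genes. A GC box stands in 32.7% of those promoters, a CCAAT box in 33.8% and a TATA box in 12.4%. A match is a string of letters and shows no binding.

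Among the inward rectifiers, Kcnj10 (chr1:172341210-172374085 in mm10, plus strand) encodes the inward rectifier by which astrocytes take up potassium, and it was highest in the EPL. It had 165, 870 and 798 CPM in the EPL of sections 1, 2 and 3. The outer zone had 92.9, 505 and 508 CPM, the mitral and IPL zone 74.4, 349 and 297 CPM, the granule zone 80.3, 306 and 211 CPM and the core 86.2, 292 and 392 CPM. The EPL was the highest zone in each section, although section 1 of the EPL lay below sections 2 and 3 of the other zones. The EPL was higher than the other 8 regions by 1.52 ± 0.18 on the log2 scale (SE, adjusted p = 5.55e-15 by edgeR's quasi-likelihood test) and than the other 4 zones by 1.38 ± 0.15 (adjusted p = 6.70e-17 by edgeR), where the median gene was at 0.11 and 0.01. GL was also higher, by 0.70 ± 0.21 (adjusted p = 0.0121 by edgeR), a call lost without section 2 (0.233), without section 3 (0.258) and without spots near a boundary (0.531). The granule zone was lower than the other zones, at a log2 fold change of -0.86 ± 0.23 (adjusted p = 0.00501 by edgeR, 0.247 without section 3).

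The astrocyte list moved the same way. It summed to 6741, 15846 and 15268 CPM in the EPL, against 4193, 6636 and 6751 CPM in the granule zone, and 9 of its 10 genes were higher in the EPL than in the other zones. Slc1a2, its glutamate transporter, had 578, 4455 and 3871 CPM in the EPL, against 353, 1809 and 1494 CPM in the granule zone. The part of astrocyte number or content in the Kcnj10 result was not tested.

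Kcnj16, whose subunit forms channels together with that of Kcnj10, was too sparse for the main fits with 107 counts. Its levels were 41.3, 159 and 160 CPM in the EPL, against 0, 85.5 and 14.1 CPM in the granule zone. The EPL was the highest zone in each section. With a minimum count of 5 in the filter it was tested, and the granule zone was lower than the EPL at -1.90 ± 0.53 on the log2 scale (adjusted p = 0.00711 by edgeR).

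Kcnj4 (chr15:79483714-79505241, minus strand), a strongly rectifying channel of neurons, was highest in the deep layers. It had 530, 293 and 282 CPM in the granule zone and 517, 141 and 327 CPM in the core. The outer zone had 387, 99.2 and 74.8 CPM, the EPL 495, 115 and 87.8 CPM and the mitral and IPL zone 372, 60.6 and 140 CPM. The granule zone was above the EPL in each of the 3 sections, and the ranges overlapped because section 1 was high in every zone. The granule zone was higher than the other zones by 0.79 ± 0.22 (adjusted p = 0.00697 by edgeR), and GCL-I was higher than the other regions by 0.95 ± 0.27 (adjusted p = 0.0233 by edgeR). Both calls were lost without section 2 (0.290 and 0.471) and without section 3 (0.140 and 0.154), and without spots near a boundary they had 0.234 and 0.192. Kcnj3, a subunit of G protein-gated rectifiers with 277 counts, did not pass the test across regions (adjusted p = 0.886 by edgeR), and its zone means lay between 162 ± 62.8 CPM in the EPL and 225 ± 86.0 CPM in the granule zone.

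Among the Kcna pores, Kcna2 (chr3:107101146-107115005, plus strand) encodes a delayed rectifier that opens at low voltage and is known from axons, and it was lowest in the granule zone. Its level in M/T was 254, 396 and 593 CPM, and in GCL-I it was 19.5, 16.5 and 170 CPM. Over the zones it had 32.1, 73.3 and 169 CPM in granule and 67.1, 141 and 114 CPM in core. The outer zone had 139, 406 and 262 CPM, the EPL 151, 416 and 343 CPM and the mitral and IPL zone 124, 303 and 366 CPM. In each section the granule zone was the lowest or, in section 3, second to the core.

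Kcna2 was called in more comparisons than any other tested member. M/T was higher than the other regions by 1.31 ± 0.33 on the log2 scale (adjusted p = 0.00580 by edgeR, 0.361 without section 3). The EPL and the ONL were each higher by 1.07, with SEs of 0.22 and 0.29 (adjusted p = 3.62e-05 and 0.00537 by edgeR), and GL by 0.77 ± 0.24 (0.0158). The ONL and GL calls were lost without section 2 (0.781 and 0.324). GCL-I was lower, at -1.71 ± 0.44 (adjusted p = 0.00971 by edgeR, 0.735 without section 2). Among zones the EPL was higher by 1.03 ± 0.20 (5.66e-06) and the outer zone by 0.77 ± 0.19 (0.00102), while granule was lower at -1.37 ± 0.31 (4.75e-04) and core at -1.01 ± 0.29 (0.0152). Without section 2 these 4 adjusted p-values were 0.0525, 0.554, 0.207 and 0.204, and without section 3 the core value was 0.395. Without spots near a boundary the GL and core calls were lost (0.0955 and 0.529).

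The mitral and tufted list was also higher in M/T than in the granule zone. It reached 4504, 2775 and 3280 CPM in M/T and 884, 697 and 676 CPM in the granule zone. The part of these cells in the Kcna2 level was not tested.

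Kcnab2 (chr4:152390742-152477871, minus strand), an auxiliary beta subunit of Kcna channels, had its highest mean in M/T. It had 317, 255 and 281 CPM there and 358, 192 and 160 CPM in the EPL. GL had 224, 139 and 159 CPM and E 159, 195 and 168 CPM, and RMS had 0 counts in all 3 sections, where a count of 0 allows up to 3 counts. Each M/T value exceeded that section's average over the remaining regions. The EPL was called higher, at 1.35 ± 0.37 (adjusted p = 0.00470 by edgeR), a fitted value that depends on the prior count in RMS, and the ratio of the EPL mean to that of the other 8 regions was 1.63. The call was lost without section 1 (0.121), without spots near a boundary (0.396), without RMS (0.138) and with DESeq2 (0.115). The M/T difference of 1.57 ± 0.50 missed the threshold (adjusted p = 0.0784 by edgeR). Kcnab2 did not pass across the 5 zones (adjusted p = 0.162 by edgeR). Its relative Kcnab3 (191 counts) had 386, 147 and 70.5 CPM in the granule zone and did not pass across regions or zones (adjusted p = 0.335 and 0.367 by edgeR), nor did the pore subunit Kcna4 across regions (119 counts, 0.545).

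Kcnb2 (chr1:15287254-15723750, plus strand), a slow delayed rectifier of neuronal cell bodies and dendrites, was lowest in the outer zone. It had 92.9, 135 and 139 CPM in the outer zone and 138, 181 and 184 CPM in the EPL. The mitral and IPL zone had 174, 288 and 297 CPM, the granule zone 161, 367 and 606 CPM and the core 201, 357 and 458 CPM. Here the order outer, EPL, mitral held in each section, and the 3 outer values lay below the 3 values of the granule zone and of the core.

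On the log2 scale Kcnb2 was lower in the outer zone than in the other zones, at -1.08 ± 0.21 (adjusted p = 1.53e-05 by edgeR), and this call held with any 1 section left out. The granule zone was higher by 0.81 ± 0.21 (adjusted p = 0.00291 by edgeR), a call lost without section 3 (0.516), without spots near a boundary (0.366) and with no filter on low counts (0.0959). By region, GL was lower at -1.08 ± 0.28 (adjusted p = 0.00216 by edgeR), a call lost without section 2 (0.0733) or section 3 (0.209).

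Kcnf1 (chr12:17172100-17176888, minus strand) encodes a subunit that forms no channel alone and joins Kcnb pores. Its levels were 295, 298 and 335 CPM in E and 389, 247 and 213 CPM in GCL-I. IPL had 40.7, 65.3 and 79.0 CPM, ONL 64.4, 142 and 54.6 CPM and GL 183, 139 and 129 CPM. The 3 E values lay above each of the 15 values of ONL, GL, EPL, M/T and IPL. E was higher than the other regions by 1.18 ± 0.28 (adjusted p = 0.00359 by edgeR) and GCL-I by 1.03 ± 0.32 (0.0401), and the core was the higher zone by 0.78 ± 0.24 (0.0215). Leaving out section 2 gave adjusted p-values of 0.0552, 0.146 and 0.108, leaving out section 3 gave 0.151, 0.121 and 0.313, and GCL-I was also lost without section 1 (0.163). Without spots near a boundary GCL-I and the core were not called (0.486 and 0.169).

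Of the Kcnh subfamily, Kcnh3 (chr15:99224861-99242817, plus strand) encodes a voltage-gated channel of forebrain neurons and was highest in the core. It had 355, 292 and 327 CPM in the core, 193, 171 and 211 CPM in the granule zone and 124, 167 and 122 CPM in the mitral and IPL zone. The EPL had 124, 65.7 and 63.8 CPM and the outer zone 31.0, 99.2 and 64.1 CPM. The 3 core values lay above all values of the other zones. The core was higher by 1.45 ± 0.24 on the log2 scale (adjusted p = 5.32e-07 by edgeR), and this call held with any 1 section left out. The outer zone was lower at -0.99 ± 0.29 (0.00728, and 0.137 without section 3) and the EPL at -0.93 ± 0.30 (0.0234, and 0.495 and 0.211 without sections 2 and 3).

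Among regions Kcnh3 had 307, 298 and 335 CPM in E and 20.4, 92.7 and 52.9 CPM in GL. E was higher by 1.17 ± 0.27 (adjusted p = 0.00240 by edgeR, 0.0552 and 0.108 without sections 2 and 3) and GL lower at -1.13 ± 0.35 (adjusted p = 0.0189 by edgeR, with 0.344, 0.0541 and 0.234 without sections 1, 2 and 3 and 0.218 without spots near a boundary). An exon of Mcrs1 (154 counts) overlaps an exon of Kcnh3 on the other strand, and the sources used here do not state if counting used the strand, so the level of Kcnh3 is uncertain by that gene's reads. Exons on the other strand also overlap Kcnh7 (Gca, 28 counts) and Kcnj3 (Gm26794, 2 counts).

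In the core the myelinating oligodendrocyte list summed to between 3712 and 6746 CPM, against 2750 to 3631 CPM in the granule zone, and 5 of its 5 tested genes were higher in the core than in the other zones. The granule cell list had between 7686 and 8294 CPM there. The part of either cell type in the Kcnh3 and Kcnf1 levels was not tested.

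Kcnh7, of the ether-a-go-go related group, had its highest zone mean in the mitral and IPL zone (211 ± 139 CPM), and it was not called in any comparison.

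In the Kcnd subfamily, Kcnd2 (chr6:21215503-21729805, plus strand), which carries the fast transient (A-type) current of dendrites, had the most counts after Kcnj10 and missed the threshold across regions (adjusted p = 0.0581 by edgeR) and across zones (0.0617). It had 337, 416 and 564 CPM in the granule zone, 471, 424 and 419 CPM in the mitral and IPL zone and 393, 389 and 409 CPM in the core. The EPL had 289, 246 and 303 CPM and the outer zone 294, 253 and 278 CPM. In unscaled CPM the outer and EPL values, at most 303 CPM, lay below all 9 values of the deeper zones. The TMM factors of the test were 0.897 for the EPL of section 3 and 1.05 for the granule zone of section 1. Divided by these, the 303 CPM of the former would exceed the 337 CPM of the latter, so the separation does not hold after scaling. Kcnd3, from the same subfamily, ranged between zone means of 148 ± 21.8 CPM in the core and 210 ± 38.2 CPM in the granule zone and did not pass (adjusted p = 0.840 by edgeR).

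Kcnip1 (chr11:33629339-33993152, minus strand), a calcium-binding partner of Kcnd channels, was lowest in the EPL. It had 55.0, 21.9 and 23.9 CPM there, from 11 counts in all. The granule zone had 273, 73.3 and 113 CPM, the core 153, 108 and 81.8 CPM, the mitral and IPL zone 198, 60.6 and 52.3 CPM and the outer zone 170, 18.0 and 48.1 CPM. The EPL range lay below those of the granule zone and the core. The EPL was lower than the other zones at -1.45 ± 0.46 on the log2 scale (adjusted p = 0.0190 by edgeR), a call lost without section 2 (0.0933) or section 3 (0.124). Kcnip1 passed the filter on low counts only through its section 1 sums in the zones other than the EPL. The filter thus favoured a low EPL, and the call describes values that it selected. Without section 1 Kcnip1 was not tested. Kcnip2, with the most Kcnip counts, had 241, 134 and 42.3 CPM in the granule zone, against 234, 21.9 and 63.8 CPM in the EPL, and did not pass across zones (adjusted p = 0.246 by edgeR).

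Kcnc1, a fast delayed rectifier of fast-spiking neurons, had 387, 171 and 240 CPM in the outer zone and 275, 263 and 208 CPM in the EPL. It had 347, 243 and 331 CPM in the mitral and IPL zone, 161, 244 and 225 CPM in the granule zone and 134, 249 and 147 CPM in the core. The ranges of every pair of zones overlapped. It was near the threshold across regions (adjusted p = 0.0599 by edgeR) and not across zones (0.235).

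Among the leak and the calcium- or sodium-activated channels only Kcnk1 and Kcnma1 were deep enough to test, in the zones alone, and neither was called by edgeR there. Kcnk1, a leak channel, had 177, 122 and 84.6 CPM in the granule zone, its highest mean (128 ± 46.3), and 92.9, 54.1 and 32.1 CPM in the outer zone, its lowest (59.7 ± 30.8). Kcnma1, the large-conductance calcium-activated channel, had 41.3, 153 and 168 CPM in the EPL and 32.1, 171 and 113 CPM in the granule zone, with section 1 the lowest in every zone. Their adjusted p-values across zones were 0.458 and 0.471 by edgeR. With no filter on low counts Kcnma1 was tested across the regions too, and the EPL was called higher by 1.23 ± 0.36 on the log2 scale (adjusted p = 0.0211 by edgeR). In that comparison the median of all genes tested was 0.57. Kcnt1, Kcnn2 and Kcnmb4 were not tested in the main fits. Kcnt1, a sodium-activated channel, averaged 114 ± 40.7 CPM in the granule zone, its highest mean, and 55.7 ± 28.9 CPM in the mitral and IPL zone, its lowest. Kcnn2, a small-conductance calcium-activated channel, averaged 65.9 ± 41.0 CPM in the granule zone and 21.0 ± 22.9 CPM in the mitral and IPL zone, from 14 and 4 counts.

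**Figure D4:**
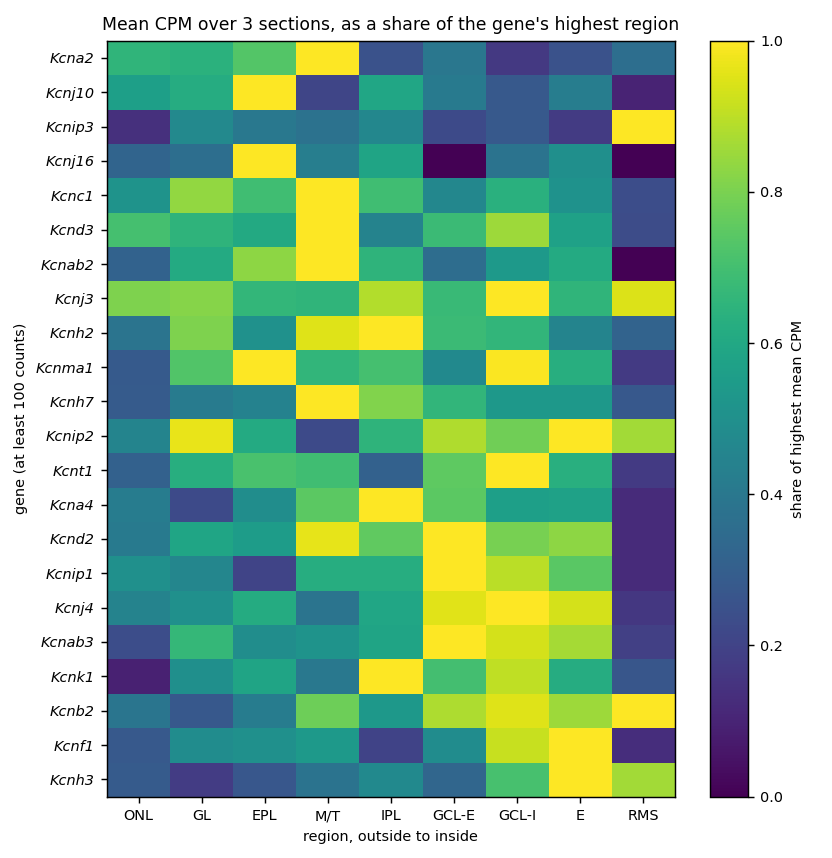
Mean CPM over 3 sections in each of the 9 regions (horizontal axis, outside to inside) for 22 members with at least 100 counts (vertical axis), each gene scaled to its highest region (colour, 0 to 1). Kcna2 has its highest mean in M/T and Kcnj10 in EPL (upper rows), and Kcnf1 and Kcnh3 have theirs in E (lower rows).

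Each region was compared with the other 8. Of 17 tested members, 1 was called in ONL (Kcna2, higher), against 6.66% of all genes tested called either way and 5.96% called higher. GL had 4 called members against 10.9% of all genes, with Kcna2 and Kcnj10 higher (8.77%) and Kcnb2 and Kcnh3 lower (2.15%). EPL had 3 against 12.1%, with Kcnj10, Kcna2 and Kcnab2 higher (10.8%). M/T had 1 against 2.20%, Kcna2, which was higher (1.90%). GCL-I had 3 against 3.31%, with Kcnf1 and Kcnj4 higher (2.40%) and Kcna2 lower (0.902%). E had 2 against 2.61%, with Kcnf1 and Kcnh3 higher (2.15%). By edgeR 0 were called in IPL, GCL-E and RMS, against 0.00%, 0.401% and 0.902% of all genes, with 1, 2 and 5 members at an unadjusted p under 0.05, and DESeq2 also called 0 in each. The member shares were 5.88% in ONL, 23.5% in GL, 17.6% in EPL, 5.88% in M/T, 17.6% in GCL-I and 11.8% in E. Those in ONL and EPL lay near that of all genes. Each share rests on at most 4 genes, and none was tested against the share of all genes.

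By zone, 5 of 19 tested members were called in the outer zone against 12.7% of all genes tested, with 1 higher (6.98% of all genes) and 4 lower (5.73%). The EPL had 4 against 11.4%, with 2 higher (8.46%) and 2 lower (2.92%). The granule zone had 5 against 9.71%, with 3 higher (4.91%) and 2 lower (4.80%). The core had 4 against 5.77%, with 3 higher (2.73%) and 1 lower (3.04%). The mitral and IPL zone had 0 by edgeR, against 0.975%, with 3 members at an unadjusted p under 0.05, and 0 by DESeq2. The median log2 fold change of the 19 members was -0.36 in the outer zone, -0.21 in the EPL, 0.11 in the mitral and IPL zone, 0.30 in the granule zone and 0.15 in the core, where the medians of all genes tested lay between 0.00 and 0.03.

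The granule zone was also set directly against the EPL, a layer of granule cell bodies against a layer of dendrites. Of 19 tested members 5 were higher and 2 lower in the granule zone, where 16.4% of all genes tested were called either way, 7.13% higher and 9.24% lower. Among those higher were Kcnip1 at 1.96 ± 0.54 on the log2 scale (adjusted p = 0.00317 by edgeR), Kcnh3 at 1.14 ± 0.38 (0.0204), Kcnb2 at 1.02 ± 0.26 (0.00136) and Kcnj4 at 0.72 ± 0.27 (0.0430). Lower were Kcna2 at -1.92 ± 0.32 (adjusted p = 1.12e-07 by edgeR) and Kcnj10 at -1.79 ± 0.24 (3.57e-12). The calls of Kcna2 and Kcnj10 held with any 1 section left out. That of Kcnip1 held without section 2 or section 3, and Kcnip1 was not tested without section 1. Kcnip1 passed the filter only through sums outside the EPL, so its call describes values that the filter favoured. Without section 3 Kcnb2, Kcnh3 and Kcnj4 were lost (0.381, 0.248 and 0.422), and without section 2 Kcnh3 and Kcnj4 (0.193 and 0.385). Without spots near a boundary Kcna2 and Kcnj10 were called, Kcnip1 was not tested, and Kcnb2, Kcnh3 and Kcnj4 were not called (0.313, 0.123 and 0.185). The median over members was 0.48, against 0.01 over all genes tested. Of the granule cell list 9 of 10 genes were higher, of the astrocyte list 9 of 10 were lower, and of the mitral and tufted list 5 of 5 tested genes were lower, and their part in the member differences was not tested.

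**Figure D5:**
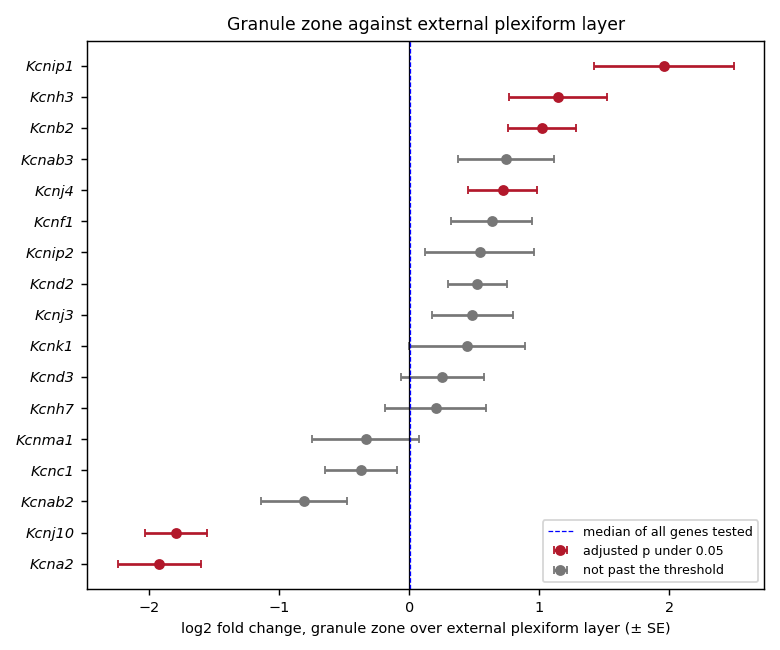
Log2 fold change of the granule zone over the EPL (horizontal axis, with SE) for 17 tested members (vertical axis); red marks an adjusted p under 0.05 by edgeR's quasi-likelihood test, and the dashed line is the median of all genes tested (0.01). Kcnip1, Kcnh3, Kcnb2 and Kcnj4 lie to the right and Kcna2 and Kcnj10 to the left.

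Of the calls described above, 11 were lost with DESeq2, at adjusted p-values between 0.0571 and 0.169. These were Kcna2 in GL, the outer zone and the core, Kcnj10 in GL, Kcnab2 in EPL, Kcnh3 and Kcnip1 in the EPL zone, Kcnj4 in the granule zone, Kcnf1 in the core, and Kcnh3 and Kcnj4 in granule against EPL. With no filter on low counts 17 were lost in edgeR's test, at adjusted p-values between 0.0673 and 0.449, among them the calls of Kcna2 in ONL, M/T, GCL-I and the core. The EPL calls of Kcnj10, by region and by zone, were kept in both. Kcnf1 in GCL-I had no adjusted p-value from DESeq2, so that call was neither kept nor counted among the 11.

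Partners of potassium channels outside the Kcn symbols were followed as a list of 20 genes, 19 of which were in the files. Of 4 tested across the regions 1 was called, against 23.2% of all genes tested, and of 7 tested across the zones 2 were called, against 23.0%, so these counts lie near the background. Of the 7, 3 were called in at least 1 single comparison. Dpp10, an auxiliary subunit of Kcnd channels, had 353, 342 and 268 CPM in the granule zone, against 110, 131 and 144 CPM in the EPL and 108, 140 and 90.8 CPM in the outer zone. The 3 granule values lay above the EPL and outer values. The granule zone was higher than the EPL by 1.13 ± 0.30 on the log2 scale (adjusted p = 0.00203 by edgeR) and than the other zones by 0.94 ± 0.24 (0.00243), while the outer zone was lower at -0.72 ± 0.24 (0.0284). Ank3, which anchors channels at the axon initial segment, had 434, 917 and 902 CPM in the granule zone, against 179, 646 and 535 CPM in the EPL (0.52 ± 0.19, adjusted p = 0.0354 by edgeR). Cntnap2, which clusters Kcna channels along myelinated axons, had 31.0, 76.7 and 128 CPM in the outer zone and was lower there at -0.79 ± 0.28 (adjusted p = 0.0376 by edgeR). Dpp6, related to Dpp10, had zone means between 125 ± 43.5 CPM in the outer zone and 205 ± 78.7 CPM in the core and was not called.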

How the data were processed

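Spatial transcriptomics of 3 coronal sections of main olfactory bulb was used, with 1 sample per section. The authors deposited whole-number transcript counts per spot and gene, and a second table with the pixel position and region of every spot, per the file headers. The submitters' processing notes name mm10 as the build. The sources used here do not state the aligner, the counter or any use of unique molecular identifiers. Each count entry took the region of the spot at its pixel position (100% of entries), since by name 97.2% of entries in sections 2 and 3 fell in the same region. Counts without a gene name (0.0325%, 0.0764% and 0.0801%) and spots of unknown region were left out.

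Counts were summed per section and region or zone and tested with edgeR 4.0.16 in R 4.3.3 (quasi-likelihood test, section block, TMM scaling, filterByExpr with a minimum count of 10, adjusted p under 0.05). CPM values were computed here from the deposited counts, without TMM scaling. The sections pair the sums: once region means were removed, sums of a section had a mean correlation of 0.406 (lowest 0.0613). Sums of unlike sections had a mean correlation of -0.210. Removing the region means by itself makes that value negative when sums of a section correlate, so it is no separate evidence of pairing. Every tested member was accounted for; values per section are printed for members called in any comparison and for the member with the most counts of each subfamily with at least 30, and partner genes when called or among the 4 deepest. Some members that these rules take are not reported here. The members and lists were chosen with earlier results of these data known. The fit was also run on simulated data in which section offsets were the same in every region. That run could not test offsets that differ between regions. Alternatives were RLE scaling, library sizes alone, other count filters, DESeq2 1.42.0, no section block, each section left out, the join by name, no boundary spots and no RMS. Gene positions are those of GENCODE M21 on mm10. No correction was made for RNA spreading between neighbouring spots.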

Additional observations from a re-analysis of the deposited data

Results flagged for a closer look

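Member counts were also found on spots to which the annotation gave no known region, and these spots enter no comparison. Section 2 had 32 member counts on them and section 3 had 15, both above the 3 counts that a count of 0 allows, and section 1 had 0. The test for a single far value in a group needs at least 4 samples, so it was not made on the 3 sections; the whole-section levels of section 1 against sections 2 and 3 are given above.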

How the results depend on the processing

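None of the 39 directional calls of members changed sign under any alternative tried, and 0 of 39 were kept under all of them. Without the replicate block 0 members were called across the 9 regions (8 with it), 1 across the 5 zones (9 with it), and 0 in each region (14 calls), in each zone (18 calls) or in granule against EPL (7 calls). Leaving out one section gave 3 to 8 members across regions, 4 to 12 calls in single regions, 4 to 10 members across zones, 7 to 20 calls in single zones and 3 to 9 in granule against EPL, with the fewest without section 2 or 3. Single zones had 10 calls with no filter on low counts, 9 with DESeq2 and 11 without boundary spots, and granule against EPL had 4, 4 and 2. The fit without boundary spots keeps 5 regions or 4 zones; on those with boundary spots kept, a match chosen after seeing the data, single zones had 22 calls and granule against EPL 8. RLE scaling kept 38 of the 39 directional calls and lost Kcnj4 in granule against EPL (adjusted p = 0.0501 by edgeR). Library sizes alone kept 36 and lost Kcna2 in ONL and GL and Kcnj10 in GL (0.0594, 0.107 and 0.128). DESeq2 kept 23 of the 38 to which it gave an adjusted p-value. Under library sizes alone the median log2 fold change of all genes was -0.07 in the EPL among regions and 0.16 in granule against EPL, where TMM scaling gave 0.11 and 0.01. Of 170 levels recomputed under alternatives, 167 moved by less than the SD between sections; the exceptions were Kcnh3 in E and the Kcnd sum in EPL without boundary spots (343 and 400 CPM) and all members in M/T with spots joined by name (5289 CPM). With 61 of 81 members too sparse to test, depth limits what could be seen.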

Other observations

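With a minimum count of 5 in the filter, 3 further members were called by edgeR's quasi-likelihood test, each chosen here after its values were seen. Kcnj16 is described above. Kcnq5, a subunit of the slow M-current that damps repeated firing, had 16.1, 159 and 70.5 CPM in the granule zone, against 27.5, 10.9 and 23.9 CPM in the EPL, and was higher in granule by 2.02 ± 0.68 on the log2 scale (adjusted p = 0.0404 by edgeR), although the granule value of section 1 was the lower of the pair. Kcnmb4, an auxiliary subunit of large-conductance calcium-activated channels, had 31.0, 4.51 and 16.0 CPM in the outer zone, from 6 counts, against 55.0, 49.3 and 39.9 CPM in the EPL, and was lower in the outer zone than in the other zones at -2.03 ± 0.57 (adjusted p = 0.0103 by edgeR). Its outer values lay below its values in every other zone of the same section.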
